A study of Mus musculus with 18 samples.

Results

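The genes described here are the replication-dependent histone genes of the mouse, taken as every row whose symbol begins with Hist1h, Hist2h, Hist3h or Hist4h in the 2 deposited expression tables. They number 68 of 24391 genes: 6 of the linker histone H1, 18 of the core histone H2A, 19 of H2B, 12 of H3 and 13 of H4. The H2B rows include the pseudogene Hist3h2bb-ps. Their 18 libraries came from the mouse T cell hybridoma E2-10HA, labelled as mature T cells, and were made from total RNA after removal of ribosomal RNA. Of the 68 rows, 66 were tested in the knockdown table and 67 in the rescue table, since Hist1h1t and, in the knockdown, Hist1h2aa had too few reads.

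Core histones H2A, H2B, H3 and H4 form the protein spool of the nucleosome, and H1 binds the DNA between nucleosomes. Their replication-dependent genes lie in clusters, have no introns as a rule, and are expressed mainly in S phase, when new DNA has to be packed. The messenger RNA of these genes usually ends in a stem-loop instead of a poly(A) tail: the stem-loop binding protein Slbp holds it, the U7 small nuclear ribonucleoprotein with Lsm10 and Lsm11 directs the cut behind it, and Npat drives transcription at the histone loci. Some of the genes, Hist2h2be and Hist1h1c among them, are known to give polyadenylated transcripts as well. Libraries selected for poly(A) miss most of these RNAs, while libraries of ribosome-depleted total RNA can contain them.

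In the knockdown experiment, cells carried either a scramble hairpin or 1 hairpin against L3MBTL3 in the lentiviral vector pLKO.1, both under puromycin selection, with 3 libraries per group. In the rescue experiment, all cells were depleted of RBPJ and carried the retroviral vector pMY-Bio IRES Blasticidin under Blasticidin selection: empty, with Flag-tagged mouse RBPJ (RBPJ WT), or with its F261A/A284V form, with 4 libraries per group. RBPJ is the DNA-binding factor of the Notch pathway, and L3MBTL3 is a chromatin protein described as its partner. Only 1 hairpin was used, and the labels do not say whether replicates came from separate cultures or infections, and a p-value here reflects only how far these libraries spread, which may be technical.

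The values are counts divided by the authors with 1 size factor per library, called normalized values here. Whole reads could be recovered from them, and the knockdown libraries held 4882485 to 6129134 of them each. The rescue libraries fell into 2 sides: replicates 1 and 2 held 5923799 to 7921533 recovered reads, and replicates 3 and 4 held 3553505 to 4239479. In each rescue group 1 pair of libraries differed by less than sampling noise: replicates 1 and 2 with the empty vector (chi-square per degree of freedom 0.859), replicates 1 and 2 with RBPJ WT (0.721), and replicates 3 and 4 with F261A/A284V (0.823). Such a pair entered means and SDs as 1 sample. L3mbtl3 itself stood at 467, 447 and 352 in scramble replicates 1, 2 and 3 against 394, 371 and 370 with the hairpin, so that scramble replicate 3 was lower than every one of the libraries labelled L3MBTL3 shRNA and directions are those of the labels. Of 10 T cell markers, 9 were at 10 or more in every library of both tables, and Cd5 stayed at 6.14 or lower in all of them. All 5 B cell markers and all 5 markers of stroma and epithelium stayed below 10 everywhere, as did the myeloid markers Cd14, Csf1r and Adgre1, while Cd68 stood at 108 to 359 and Lyz2 at 2.81 to 29.3. In bulk RNA of this kind, fewer cells in S phase and less histone RNA per cell cannot be told apart.

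The stem-loop that sets these transcripts apart was searched in GENCODE transcripts of the build GRCm38 and was found for 42 of the 68 genes: 4 of H1, 11 of H2A, 10 of H2B, 8 of H3 and 9 of H4. A gene without a match need not lack it, since some annotated transcripts end with the coding part. The longest transcript of Hist1h4k has 312 bases for a coding length of 309, and that of Hist2h2bb 381 for 378. Shown are the genes with the highest level per kb in H1 (Hist1h1e), H2A (Hist2h2aa2), H3 (Hist2h3c2) and H4 (Hist1h4n), further forms of the loop in H2B (Hist1h2bk) and H4 (Hist2h4), and Hist3h2ba, whose values differed from those of the other members. Capitals mark the stem-loop itself.
Hist1h1e: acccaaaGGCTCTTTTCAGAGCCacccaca
Hist2h2aa2: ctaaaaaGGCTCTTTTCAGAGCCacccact
Hist1h2bk: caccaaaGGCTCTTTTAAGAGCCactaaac
Hist3h2ba: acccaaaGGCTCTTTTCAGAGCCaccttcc
Hist2h3c2: ccacaaaGGCTCTTTTCAGAGCCaccacag
Hist1h4n: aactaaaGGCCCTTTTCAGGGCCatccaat
Hist2h4: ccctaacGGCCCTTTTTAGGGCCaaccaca
All 9 H4 genes with a match carried a form with the stem GGCCC, and all 33 genes of the other classes a form with the stem GGCTC. The search took exact matches only: the stem GGCTC or GGCCC, TTTT, then A, C or T, then A and the closing stem. Variation at other bases could therefore not be found. Of the 33 genes, 26 had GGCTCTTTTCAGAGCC, 6 had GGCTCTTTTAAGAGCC and 1 had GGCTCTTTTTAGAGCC. Of the 9 H4 genes, 7 had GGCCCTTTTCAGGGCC and 2 had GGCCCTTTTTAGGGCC.

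Promoters of 61 members were matched in RefSeq (build GRCm38.p6), each as 300 bases around the start of the gene. The TATA box letters TATAAA, searched on both strands, were found in 57.4% of them and in 13.6% of all 32851 RefSeq promoters of that length. The letters CCAAT were found in 85.2% of the members' promoters and in 37.4% of all promoters. Every matched H1, H2A, H2B and H3 gene had CCAAT, but only 3 of 12 H4 genes did. The octamer ATTTGCAT, known as a binding sequence of Oct1 in H2B promoters, was found in 7 of 17 H2A and 6 of 16 H2B promoters, in no H1, H3 or H4 promoter, and in 1.74% of all promoters. Some H2A and H2B promoters overlap on opposite strands, as those of Hist1h2aa and Hist1h2ba do, so the same site can be counted in both classes. The promoters given here are those of the 2 genes at the ends of the range across the sides of the rescue libraries, Hist2h2bb (plus strand, chr3:96269450-96269749) and Hist3h2ba (plus strand, chr11:58948661-58948960), with these motifs in capitals, and that of the H4 gene Hist1h4h (plus strand, chr13:23530794-23531093), in which none of them was found.
Hist2h2bb: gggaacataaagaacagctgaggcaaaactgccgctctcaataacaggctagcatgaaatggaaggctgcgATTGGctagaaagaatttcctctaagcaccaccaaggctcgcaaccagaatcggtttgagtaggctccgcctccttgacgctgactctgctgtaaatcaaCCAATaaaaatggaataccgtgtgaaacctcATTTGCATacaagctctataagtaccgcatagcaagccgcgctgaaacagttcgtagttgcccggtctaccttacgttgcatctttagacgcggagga
Hist3h2ba: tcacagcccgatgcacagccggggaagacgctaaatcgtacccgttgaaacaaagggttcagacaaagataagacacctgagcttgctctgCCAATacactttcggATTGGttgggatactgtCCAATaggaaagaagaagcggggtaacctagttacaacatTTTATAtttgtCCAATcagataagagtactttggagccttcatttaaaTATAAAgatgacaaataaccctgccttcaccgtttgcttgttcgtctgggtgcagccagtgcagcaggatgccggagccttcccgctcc
Hist1h4h: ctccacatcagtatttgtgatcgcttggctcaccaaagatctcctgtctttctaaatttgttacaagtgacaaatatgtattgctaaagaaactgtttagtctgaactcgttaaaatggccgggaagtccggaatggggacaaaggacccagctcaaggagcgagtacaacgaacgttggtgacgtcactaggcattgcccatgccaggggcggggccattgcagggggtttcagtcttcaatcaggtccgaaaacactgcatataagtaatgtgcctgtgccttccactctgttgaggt

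Expression of the histone genes was broad. Per kb of coding sequence, mean normalized values in the knockdown table had a class median of 858 for H1, 686 for H2A, 854 for H2B, 769 for H3 and 753 for H4. In the rescue table, the class medians per kb were 955 for H1, 802 for H2A, 964 for H2B, 884 for H3 and 860 for H4. H1 and H2B were highest and H2A lowest in both tables, and the ranges of the classes overlapped. The 2 lowest are known for their expression in testis: the H1t gene Hist1h1t averaged 7.19 and the H2A gene Hist1h2aa 23.5 per kb in the knockdown table. Hist1h2ba, the H2B gene of testis, averaged 341 per kb there, above the lowest H2B gene, Hist3h2ba, at 254. Hist1h1t stood between 0 and 7.49 normalized counts in all 18 libraries. Its single 0 was in L3MBTL3 shRNA replicate 2, where a count of 0 allows up to 2.94 normalized counts (3 reads; counting error only).

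Levels of single genes within a class are less certain than the class sums, because copies share sequence. Among members, the share of 50-base stretches of a gene's transcripts that also occur in another member ran from 0% to 100%, with a median of 73% for H2A, 57.2% for H3, 40.1% for H2B, 39.5% for H4 and 1.1% for H1. Hist1h2bq and Hist1h2br had equal values in all 18 libraries, as had Hist2h3c1 and Hist2h3c2, while Hist2h2aa1 and Hist2h2aa2 never differed by more than 4 reads and Hist1h2ao and Hist1h2ap by no more than 3. Such copies are described once below, and their reads may be counted more than once in the sums. By the annotation, 24 members overlap another gene and 21 overlap one on the opposite strand; how the counting treated strand was not stated.

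Among H1 genes, Hist1h1e, which encodes H1.4, had the highest level per kb of coding sequence, 1218 in the knockdown and 1315 in the rescue table. Its values were 710.2, 809 and 1001 in scramble replicates 1 to 3 and 769.9, 724 and 786 with the L3MBTL3 hairpin. In replicates 1 to 4 of the rescue, Hist1h1e stood at 591, 689.7, 1006 and 1195 with the empty vector, 592, 599, 1020.3 and 1039 with RBPJ WT and 737, 575, 1193 and 1130.4 with F261A/A284V. All knockdown groups overlapped, the highest knockdown value was that of scramble replicate 3, and in each rescue group replicates 3 and 4 lay above replicates 1 and 2.

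Hist1h1c (H1.2) stood at 623, 714 and 844 with scramble and 681, 649.6 and 714 with the hairpin, and in the rescue at 523, 619, 879 and 993 (empty vector), 520.1, 515, 897 and 914 (RBPJ WT) and 628, 503, 1033 and 988 (F261A/A284V). Hist1h1d (H1.3) stood at 603, 676 and 784 with scramble and 649.8, 635 and 669 with the hairpin, and in the rescue at 495, 581, 847 and 972, 482, 504, 822 and 874 and 607, 476, 970.1 and 911 in the same order of groups. Both genes repeated the pattern of Hist1h1e, with the same library highest in the knockdown and the same gap between the sides of every rescue group.

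Of the H2A genes, Hist2h2aa2 of the pair Hist2h2aa1 and Hist2h2aa2 was highest per kb, with 2015 and 2178 in the knockdown and rescue tables. Hist2h2aa2 stood at 718, 782 and 945 with scramble and 755, 733 and 781 with the hairpin. Its rescue values were 597, 705, 1008 and 1146 with the empty vector, 602, 593, 992 and 1013 with RBPJ WT and 716, 595, 1139 and 1088 with F261A/A284V. Hist1h2ao stood at 508, 585 and 671 and 535, 531 and 559 in the knockdown groups and at 496, 578, 789 and 831, 506, 518, 739 and 780.1 and 604, 489, 902 and 848 in the rescue groups. In both genes the hairpin libraries lay inside the range of the scramble libraries.

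The H2B pair Hist1h2bq and Hist1h2br stood at 695, 738 and 902 with scramble and at 666, 649 and 699.8 with the hairpin. Rescue values of the pair were 563, 662, 935 and 1061 with the empty vector, 588, 595, 941 and 988 with RBPJ WT and 732, 587, 1055 and 1004 with F261A/A284V. The knockdown groups overlapped by 1 library on each side, the highest hairpin and the lowest scramble library. Hist2h2be, a cluster gene that shares no 50-base stretch with another member, stood at 681, 722 and 843 with scramble and 599.8, 634 and 662 with the hairpin, so that the groups did not overlap. In the rescue Hist2h2be stood at 471, 480.2, 699.6 and 679, 509, 480.3, 692 and 818 and 550.0, 527, 669.8 and 664, with RBPJ WT replicate 4 highest.

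Among H3 genes, the pair Hist2h3c1 and Hist2h3c2 stood at 650.4, 801 and 918 with scramble and 753, 726 and 779 with the hairpin. In the rescue, the values of this pair were 616, 703, 1002 and 1074 with the empty vector, 645, 611, 922 and 921 with RBPJ WT and 750.2, 595, 1113 and 1028 with F261A/A284V. Hist2h3b stood at 309, 381 and 445 and 355, 346 and 355 in the knockdown and 295, 333, 481 and 529, 298, 299, 449.6 and 462 and 357, 288, 525 and 506 in the rescue. Scramble replicates 1 and 3 were the lowest and the highest knockdown library for these genes, with the hairpin libraries between them.

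For H4, whose genes encode near-identical proteins, Hist1h4n stood at 490.3, 537 and 633 with scramble and 517, 481 and 508 with the hairpin, and in the rescue at 399, 474, 698 and 812 (empty vector), 407, 407, 715 and 728 (RBPJ WT) and 505, 398, 822 and 776 (F261A/A284V). Hist1h4d stood at 249.8, 264 and 302 and 248, 250.2 and 253 in the knockdown and at 201, 241, 356 and 420.3, 203, 205, 349 and 379.5 and 252, 197, 402 and 389.5 in the rescue. Hist1h4m had 244, 259 and 312 and 259, 239 and 256 in the knockdown and 198, 229, 348 and 408, 199, 199.6, 348 and 354 and 247, 196, 405 and 384 in the rescue. In each of the 3 H4 genes, replicates 3 and 4 of a rescue group stood about as far above replicates 1 and 2 as in the H1 genes.

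**Figure D1:**
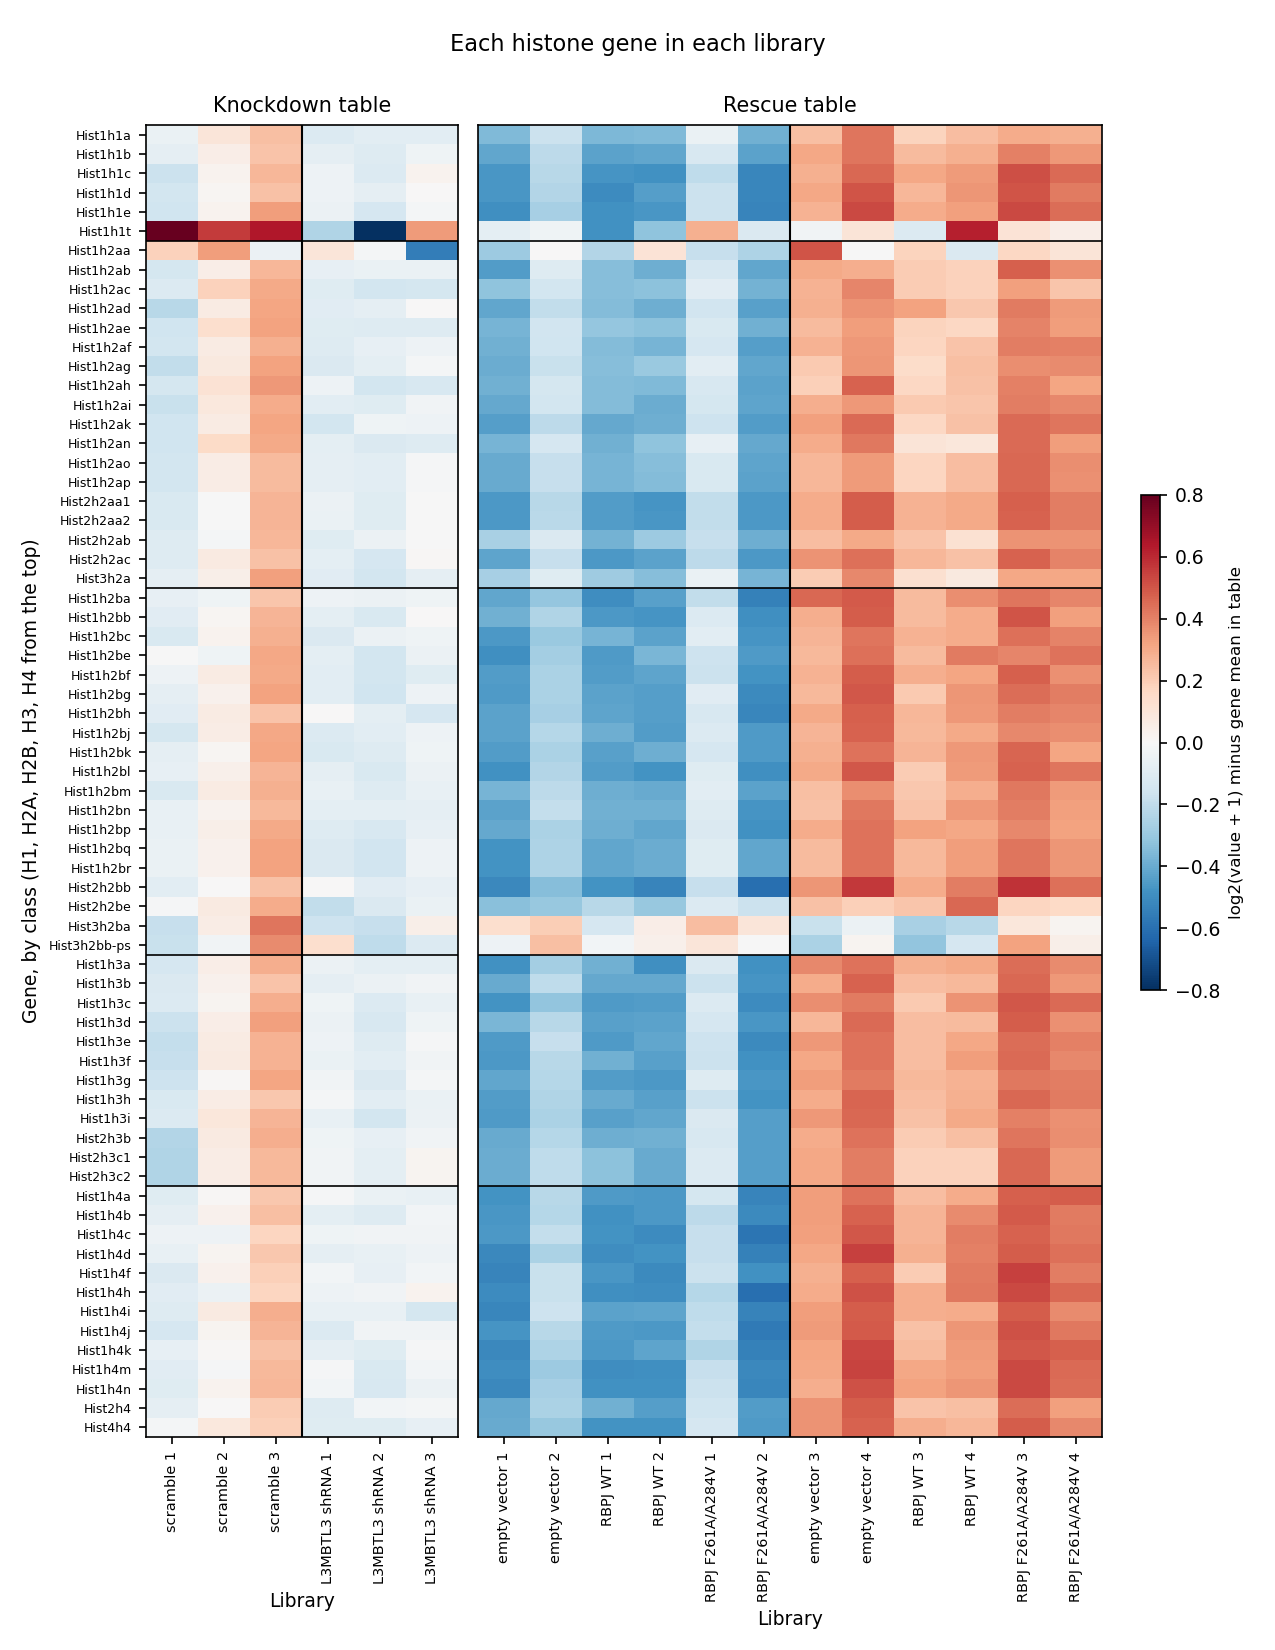
Log2(normalized value + 1) of each of the 68 histone genes (rows, by class) in each library (columns), less the gene's mean in its table; the colour scale ends at 0.8 on either side. Scramble replicate 3 is the highest knockdown library in nearly every row, and replicates 3 and 4 are high in every row of the rescue table but those of Hist3h2ba, Hist3h2bb-ps, Hist1h2aa and Hist1h1t.

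The knockdown comparison asked which transcripts change when L3MBTL3 is targeted. No histone gene was called in it. All 66 tested histone genes had a log2 fold change below 0, from -0.25 (Hist1h2ac) to -0.02 (Hist1h4h), with a median of -0.133 against -0.007 over all 11586 genes tested. The shift depended on scramble replicate 3: without it, 47 genes were below 0 and 19 above, with a median of -0.025. Without scramble replicate 1 it was larger, with a median of -0.223 and 39 of 66 genes lower at an unadjusted p under 0.05. After adjustment 0 of the 66 passed, where 235 of all genes were called higher and 97 lower. The share of all genes at an unadjusted p under 0.05 was not counted, here or below. By limma, 0 of 66 rose and 0 fell (p adjusted after Benjamini-Hochberg, threshold 0.05). Of all genes tested, 3.32% were called, 2.21% higher and 1.11% lower. At an unadjusted p under 0.05, 2 were lower and 0 higher; edgeR and DESeq2 on recovered reads called 0 as well, with 4 and 1 lower at an unadjusted p under 0.05.

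Hist2h2be, an H2B gene, had the lowest adjusted p. Its mean was 632 ± 31.3 with the hairpin and 749 ± 84.2 with scramble (SD, n = 3 each), which gave a log2 difference of -0.24 (SE 0.084, limma adjusted p = 0.13). With the replicate number as a block, Hist2h2be fell (adjusted p = 0.0129), and so did Hist1h2bq and Hist1h2br (log2 -0.20, SE 0.0642, adjusted p = 0.0393 for each of the equal pair). In that paired fit 8.71% of all genes tested fell, against 3 of 66 histone genes. Hist1h2ac, the H2A gene with the largest difference, stood at 227, 279 and 304 with scramble and 229.7, 222 and 223 with the hairpin (log2 -0.25, SE 0.112, limma adjusted p = 0.202), and its groups overlapped. Hist1h4h, at the other end of the range, stood at 233, 241 and 279 and 241, 243 and 253 (log2 -0.02, limma adjusted p = 0.887).

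The 3 libraries per group did not overlap, with the hairpin lower, for 8 of the 66 histone genes: the H1 gene Hist1h1a, the H2A gene Hist3h2a, the H2B genes Hist1h2be, Hist1h2bf, Hist1h2bn, Hist1h2bp and Hist2h2be, and the H4 gene Hist4h4. Among all genes tested, 17.1% did not overlap in that direction. No histone gene was apart in the other direction, where 18.1% of all genes were. The 8 names were chosen after their values were seen. Adjusted p of these genes in limma lay between 0.13 and 0.317.

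By class, the median log2 fold change was -0.16 for H2B (19 tested), -0.14 for H2A (17), -0.13 for H1 (5), -0.11 for H4 (13) and -0.10 for H3 (12). Summed over all 68 genes, normalized values were 21825, 24421 and 28691 in scramble replicates 1 to 3 and 22594, 22121 and 23159 with the hairpin. Scramble averaged 24979 ± 3467 and the hairpin 22625 ± 519 (SD, n = 3 each), with a ratio of 0.906, and the 3 hairpin libraries all lay inside the scramble range. Every class sum had a ratio between 0.88 (H2B) and 0.927 (H3), and the groups overlapped in each class. Without scramble replicate 3, the log2 ratio of the sums was -0.03 in place of -0.14. Scramble replicate 3 also had the fewest recovered reads of the table, 4882485, and the part of depth in its high histone values was not tested.

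Genes that process histone mRNA, carry histones or act in S phase were counted from lists, beside 1.11% of all genes called lower. Of 20 genes of histone mRNA processing, 1 fell with the hairpin: Eri1, a nuclease that trims the stem-loop end, stood at 685, 719 and 639 with scramble and 455, 451 and 523 with the hairpin (log2 -0.52, SE 0.0765, limma adjusted p = 0.0314). The list's median was -0.08, and Slbp (log2 -0.19, limma adjusted p = 0.171) and Npat (-0.20, limma adjusted p = 0.139) did not pass in this fit. With the replicate block, 4 of the 20 fell and 1 rose (Ctif, Eri1, Npat, Srrt and Upf1), where 1566 of all genes rose and 1009 fell. Of 13 histone chaperones, only Nap1l4, which carries H2A and H2B, fell with group as the only term (1000.3, 1043 and 1085 with scramble, 884, 878 and 888 with the hairpin, log2 -0.24, limma adjusted p = 0.0492). With the block, 3 of the 13 fell: Nap1l1, Nap1l4 and Nasp.

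Of 21 S phase genes, 3 fell and 0 rose. Cdc6, a licensing factor of replication origins, stood at 486, 515 and 467 with scramble and 345, 381 and 396 with the hairpin (log2 -0.39, limma adjusted p = 0.0413). Mcm3, a subunit of the replicative helicase, stood at 1079, 1160.4 and 1126 and 899.7, 895 and 946 (log2 -0.295, limma adjusted p = 0.0362). Rrm2, a subunit of ribonucleotide reductase, stood at 1049, 1121 and 1229 and 844, 892 and 945 (log2 -0.34, limma adjusted p = 0.0491). In these 3 genes and in Eri1 and Nap1l4 the groups did not overlap, which none of the highest histone genes but Hist2h2be showed. The S phase list had a median of -0.20, and with the replicate block 12 of its 21 genes fell, where 8.71% of all genes did. Each of the 5 list calls with group as the only term ended when some libraries were left out. Nearly all calls over all genes ended without any 1 hairpin library or without scramble replicate 2. Of all 11586 genes, 0 were called without hairpin replicate 1, hairpin replicate 2 or scramble replicate 2. Without hairpin replicate 3, 2 were called higher and 3 lower. Without scramble replicate 1, 235 were called higher and 97 lower, and without scramble replicate 3, 646 and 383. The log2 differences of the 5 genes stayed below 0 in every such fit, for Eri1 between -0.585 and -0.476. With 1 library left out at a time, limma adjusted p ran from 0.0103 to 0.203 for Eri1, 0.0215 to 0.234 for Nap1l4, 0.0159 to 0.206 for Cdc6, 0.0157 to 0.206 for Mcm3 and 0.0253 to 0.234 for Rrm2. None of the 5 passed without any 1 hairpin library or without scramble replicate 2, all 5 passed without scramble replicate 3, and without scramble replicate 1 only Eri1, Mcm3 and Rrm2 did. None of 9 tested replication-independent histone genes (median -0.11) and none of 77 tested RNAs of other kinds without poly(A), mainly small nucleolar RNAs (median -0.17), passed. With the replicate block, 1 of these 9 histone genes fell (Cenpa), and 0 of the 77 other RNAs were called.

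The rescue comparisons asked what putting back RBPJ, or a form of it, changes in cells depleted of it; they share libraries and come from 1 fit. With RBPJ WT, no histone gene was called against the empty vector. The log2 fold change was below 0 for 66 of 67 tested histone genes and above it for Hist2h2be, with a median of -0.099 against -0.008 over all 11691 genes tested. By limma, 0 of the 67 passed (0 at an unadjusted p under 0.05; 0 called by edgeR and 0 by DESeq2), where 0.248% of all genes were called. Group was the only term of this fit, so the difference between the sides, described below, added to the spread in all rescue comparisons. With the side as a term, 0 passed as well, with 3 lower at an unadjusted p under 0.05 (lowest limma adjusted p 0.25). Of all genes, 129 were then called higher and 154 lower. The largest difference was that of Hist1h2an, an H2A gene, at 220.3, 260.6, 350.5 and 382 with the empty vector and 218, 228, 307 and 304 with RBPJ WT (log2 -0.18, SE 0.22, limma adjusted p = 1). Within replicates 1 and 2 the groups of this gene overlapped, and within replicates 3 and 4 both RBPJ WT libraries were lower. The highest was Hist2h2be (log2 0.09, SE 0.187, limma adjusted p = 1).

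With F261A/A284V, 57 histone genes lay above the empty vector and 10 below, with a median of 0.033 against 0.008 over all genes. None of the 67 was called (0 at an unadjusted p under 0.05; 0 by edgeR and 0 by DESeq2), where 0.0171% of all genes were. With the side as a term, 0 were called as well (lowest limma adjusted p 0.668), where 46 of all genes were called higher and 35 lower. The log2 fold change ran from -0.09 for Hist1h2aa, which is near the detection limit, to 0.12 for the pseudogene Hist3h2bb-ps. Hist1h2aa stood at 9.83, 12.3, 17.8 and 12.2 with the empty vector, 10.2, 13.3, 14.01 and 11.2 with RBPJ WT and 10.7, 10.1, 13.9 and 13.2 with F261A/A284V. Hist3h2bb-ps stood at 52.4, 64.1, 45.2 and 55.02, 53.2, 55.8, 43.3 and 49.2 and 57.8, 53.9, 67.8 and 55.9 in the same order, and the groups overlapped for both genes.

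Between the 2 forms of RBPJ, 65 histone genes lay higher with F261A/A284V and 2 lower, with a median of 0.133 against 0.014 over all genes. Again 0 of 67 were called by limma (0 at an unadjusted p under 0.05; 0 by edgeR and 0 by DESeq2), where 0.316% of all genes were. At an unadjusted p under 0.05, 24 histone genes were higher with the replicate block and 28 with the side as a term, with 0 called in either (lowest limma adjusted p 0.143 and 0.118). Of all genes, 4.74% were then called after adjustment with the block, and 305 genes were called higher and 293 lower with the side. The share of all genes at an unadjusted p under 0.05 was not counted, so the 24 and 28 have no such share beside them. The largest difference was that of Hist3h2ba, an H2B gene outside the large cluster, at 77.8, 88.7, 71.3 and 73.1 with RBPJ WT and 101, 91.3, 90.9 and 86.7 with F261A/A284V (log2 0.25, SE 0.119, limma adjusted p = 1). Its values with the empty vector were 93.8, 98.2, 75.3 and 82.5. The mutant libraries of Hist3h2ba lay above RBPJ WT on each side, but replicate 2 of RBPJ WT exceeded replicate 4 of the mutant.

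Within replicates 3 and 4, 3 histone genes were higher with F261A/A284V than with RBPJ WT by limma: Hist1h2an (log2 0.30, SE 0.0858, adjusted p = 0.0398) and the equal pair Hist2h3c1 and Hist2h3c2 (log2 0.21, SE 0.0624, adjusted p = 0.0409 each). There, 3.64% of all genes were called higher. Within replicates 1 and 2, none of the 67 passed, where 84 of all genes were called higher and 107 lower. There, limma adjusted p was 0.753 for Hist1h2an and 0.767 for the pair. Since the mutant's replicates 3 and 4 are a near-identical pair, these 3 calls rest on 1 sample of the mutant. In a test of whether the difference itself differed between the sides, 0 of 67 histone genes passed for this comparison (limma, lowest adjusted p = 0.175, 1 at an unadjusted p under 0.05), nor for RBPJ WT (0, lowest adjusted p = 1) or F261A/A284V (0, with 1 at an unadjusted p under 0.05, lowest adjusted p = 0.453) against the empty vector. Few of all 11691 genes passed that test either: 67, 2 and 15 in the same order.

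The groups overlapped for every tested histone gene: the count without overlap was 0 of 67 in each of the 3 comparisons, against 3.34%, 1.92% and 3.7% of all genes in the order above. Within replicates 1 and 2, the median log2 fold changes of the histone genes were -0.091, 0.02 and 0.111, in the same order. Within replicates 3 and 4 they were -0.102, 0.048 and 0.151, so each kept its sign. In fits without a term for the side, the size and in part the direction changed with single libraries and with the near-identical pairs. Leaving out a library there also unbalances the sides, between which the histone genes differed most. Leaving out 1 library at a time moved the median of RBPJ WT against the empty vector from -0.252 to 0.042, and it was above 0 in 3 of these 8 cases: without empty vector replicate 4, or without replicate 1 or 2 of RBPJ WT. For F261A/A284V against the empty vector the median ran from -0.117 to 0.205, and it turned below 0 without empty vector replicate 1 or 2 or without mutant replicate 3 or 4. The median for F261A/A284V against RBPJ WT ran from 0.001 to 0.308. With each near-identical pair counted once and no term for the side, an alternative chosen after seeing the data, it was -0.103, and -0.202 for F261A/A284V against the empty vector, since the mutant then had 2 samples in replicates 1 and 2 and 1 in replicates 3 and 4, and the other groups the reverse. Group means of the summed histone values over these 3 samples carry the same imbalance: 28864 ± 7425 with the empty vector, 26995 ± 6726 with RBPJ WT and 25368 ± 7942 with F261A/A284V (SD, n = 3 each). With pairs counted once and the side as a term, the medians were -0.104, 0.028 and 0.132 for the 3 comparisons in the order above, with 0 calls in each. Of all genes, 78, 6 and 126 were then called higher and 100, 5 and 103 lower. Within each side the sums were close: the log2 ratio of the group sums was -0.09 within replicates 1 and 2 and -0.10 within replicates 3 and 4 for RBPJ WT against the empty vector, 0.03 and 0.05 for F261A/A284V against the empty vector, and 0.12 and 0.15 for F261A/A284V against RBPJ WT.

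**Figure D2:**
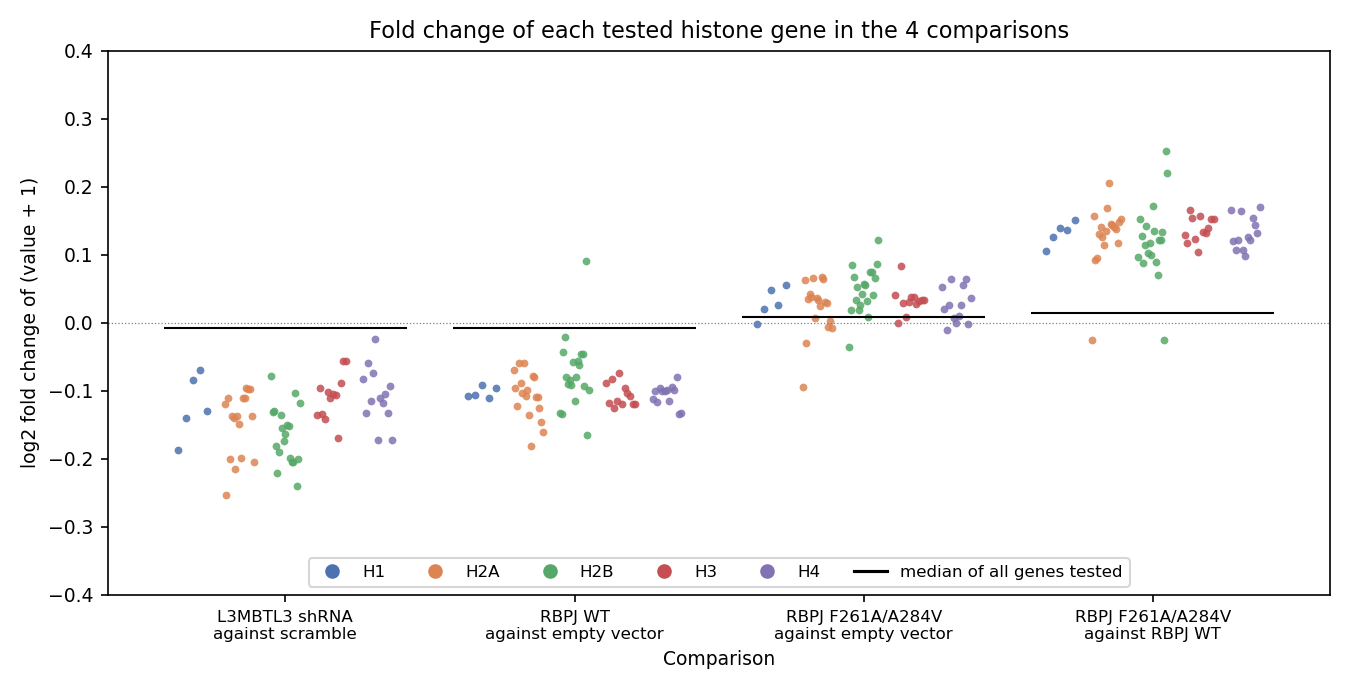
Log2 fold change of (value + 1) from limma for each tested histone gene (points, coloured by class) in the knockdown comparison and the 3 rescue comparisons; black lines mark the median of all genes tested. The points of each comparison lie within 0.26 of 0 and mostly on 1 side of it, and none was called.

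The widest differences among the histone genes ran between the sides of the rescue libraries, in every group alike. Of the 67 tested, 64 were higher in all 6 libraries of replicates 3 and 4 than in any of replicates 1 and 2, 0 were lower, and 3 overlapped. Of all genes tested, 26.2% were higher in that way and 21.3% lower. The mean log2 difference had a median of 0.70 over the histone genes and of -0.02 over all genes. What separates the sides is not stated in the labels, so this is a description and no test was made; the sides also differ in depth.

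The difference was largest in H4 genes, with a class median of 0.79 (range 0.70 to 0.83, all 13 apart), and in H1 genes, with 0.78 (0.56 to 0.80, all 5 tested apart). It was 0.70 for H3 (0.63 to 0.77, all 12 apart) and 0.70 for H2B (-0.20 to 0.88, 17 of 19 apart). H2A genes had the smallest median, 0.61 (0.28 to 0.75, 17 of 18 apart). The 3 largest differences were those of Hist2h2bb (0.88), an H2B gene of the cluster on chromosome 3, and of the H4 genes Hist1h4h (0.83) and Hist1h4m (0.82). Hist2h2bb stood at 262, 295, 478 and 555 in empty vector replicates 1 to 4, 268, 259, 459.8 and 496 with RBPJ WT and 328, 246, 557 and 509 with F261A/A284V. Hist1h4h had 193, 242, 337 and 389.7, 195, 194, 335 and 367 and 233, 180.1, 396 and 376 in the same order of groups. In both, the lowest library of replicates 3 and 4 exceeded the highest of replicates 1 and 2.

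At the other end stood Hist3h2ba (-0.20), Hist3h2bb-ps (-0.10) and Hist1h2aa (0.28), whose values are given above and whose sides overlapped. Across the rescue libraries Hist1h2aa stood between 9.83 and 17.8 normalized counts, and the other 2 between 43.3 and 101. Of the Hist3 cluster on chromosome 11, only the third gene, Hist3h2a, was apart (0.47), the smallest difference among the 64. Next came Hist2h2be (0.48) and the H2A genes Hist1h2ac and Hist2h2ab (0.54 each).

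By cluster, 52 of the 53 tested genes of the Hist1 cluster on chromosome 13 were apart (median 0.71), as were 10 of 10 of the Hist2 cluster on chromosome 3 (0.68), the Hist4 gene Hist4h4 on chromosome 6 (0.75) and 1 of 3 of the Hist3 cluster (-0.10). Genes with a stem-loop found in an annotated transcript had a median of 0.72 (41 genes), and the 26 without a match had 0.69. Some of the 26 have annotated transcripts that end with the coding part. Hist3h2ba is 1 of the genes with a match, as its sequence above shows. The 5 genes that share no 50-base stretch with another member had a median of 0.67 and were all apart, the 32 with a share of up to 50% had 0.72 and the 30 with more had 0.69. Promoters with the octamer, as in Hist2h2bb, went with a median of 0.63 (13 genes) and those without it with 0.72 (47); with TATAAA it was 0.70 (35) and without it 0.70 (25). With CCAAT the median was 0.69 (51 genes) and without it 0.79 (9).

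**Figure D3:**
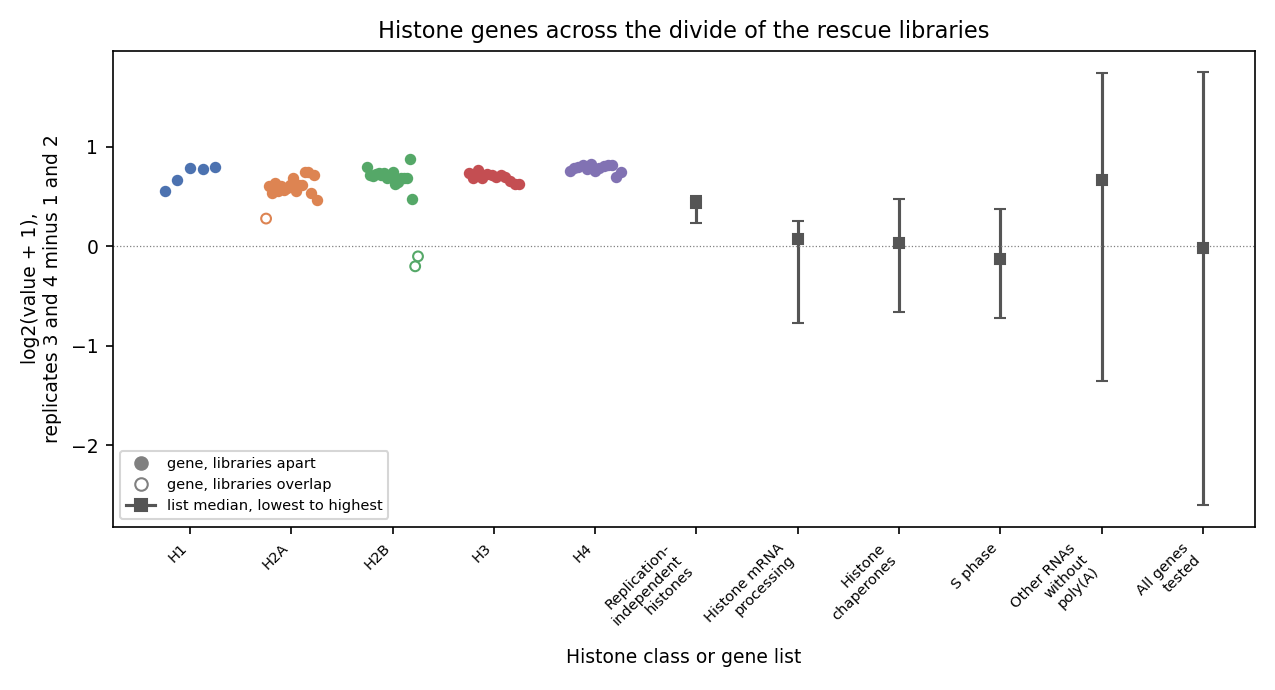
Mean log2(value + 1) of the 6 rescue libraries of replicates 3 and 4 less that of replicates 1 and 2 for each tested histone gene by class (points, open where the sides overlap), beside the median and the range from lowest to highest of the gene lists and of all genes (squares with bars). Most histone genes lie between 0.47 and 0.88, with 3 open points below, while the lists of histone mRNA processing, chaperones and S phase genes centre near 0.

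Summed over all 68 genes, normalized values were 19001, 22029, 31349 and 34727 in empty vector replicates 1 to 4, 19295, 19222, 30277 and 31450 with RBPJ WT, and 23286, 18674, 34961 and 33326 with F261A/A284V. The sides did not overlap in any group. The log2 ratio of replicates 3 and 4 to 1 and 2 was 0.69 with the empty vector, 0.68 with RBPJ WT and 0.70 with F261A/A284V. Over all 12 libraries the sum was 1.61 times as high in replicates 3 and 4, and by class 1.73 times for H4, 1.66 for H1, 1.61 for H3, 1.60 for H2B and 1.56 for H2A.

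Before scaling for depth, the direction was the other one. Recovered histone reads summed to 28982, 32293, 22899 and 22722 with the empty vector, 28270, 30336, 23769 and 22375 with RBPJ WT, and 26166, 29450, 22704 and 22671 with F261A/A284V. In replicates 3 and 4 they were 0.781 times those of replicates 1 and 2, while the recovered reads of the whole library were 0.519 times as many. Histone reads thus made up 0.372% (95% exact interval 0.368 to 0.376, F261A/A284V replicate 2) to 0.442% (0.436 to 0.447, F261A/A284V replicate 1) of a library in replicates 1 and 2, and 0.561% (0.554 to 0.568, RBPJ WT replicate 3) to 0.639% (0.631 to 0.647, F261A/A284V replicate 3) in replicates 3 and 4. These intervals cover counting error only.

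Inside the sides, the libraries with fewest reads also had the highest histone sums. F261A/A284V replicate 1, with the fewest recovered reads of replicates 1 and 2 (5923799), had the highest histone sum of that side, and F261A/A284V replicate 3, with the fewest of all 12 libraries (3553505), the highest sum of all. RBPJ WT replicate 3, with the most reads of replicates 3 and 4 (4239479), had the lowest sum of that side. Across the 6 libraries of replicates 3 and 4, recovered histone reads spanned 22375 to 23769, a factor of 1.06, while library reads spanned a factor of 1.19. In the knockdown table recovered histone reads spanned a factor of 1.13 and library reads 1.26. The part of depth in these differences was not tested, and depth and side cannot be told apart between the sides.

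**Figure D4:**
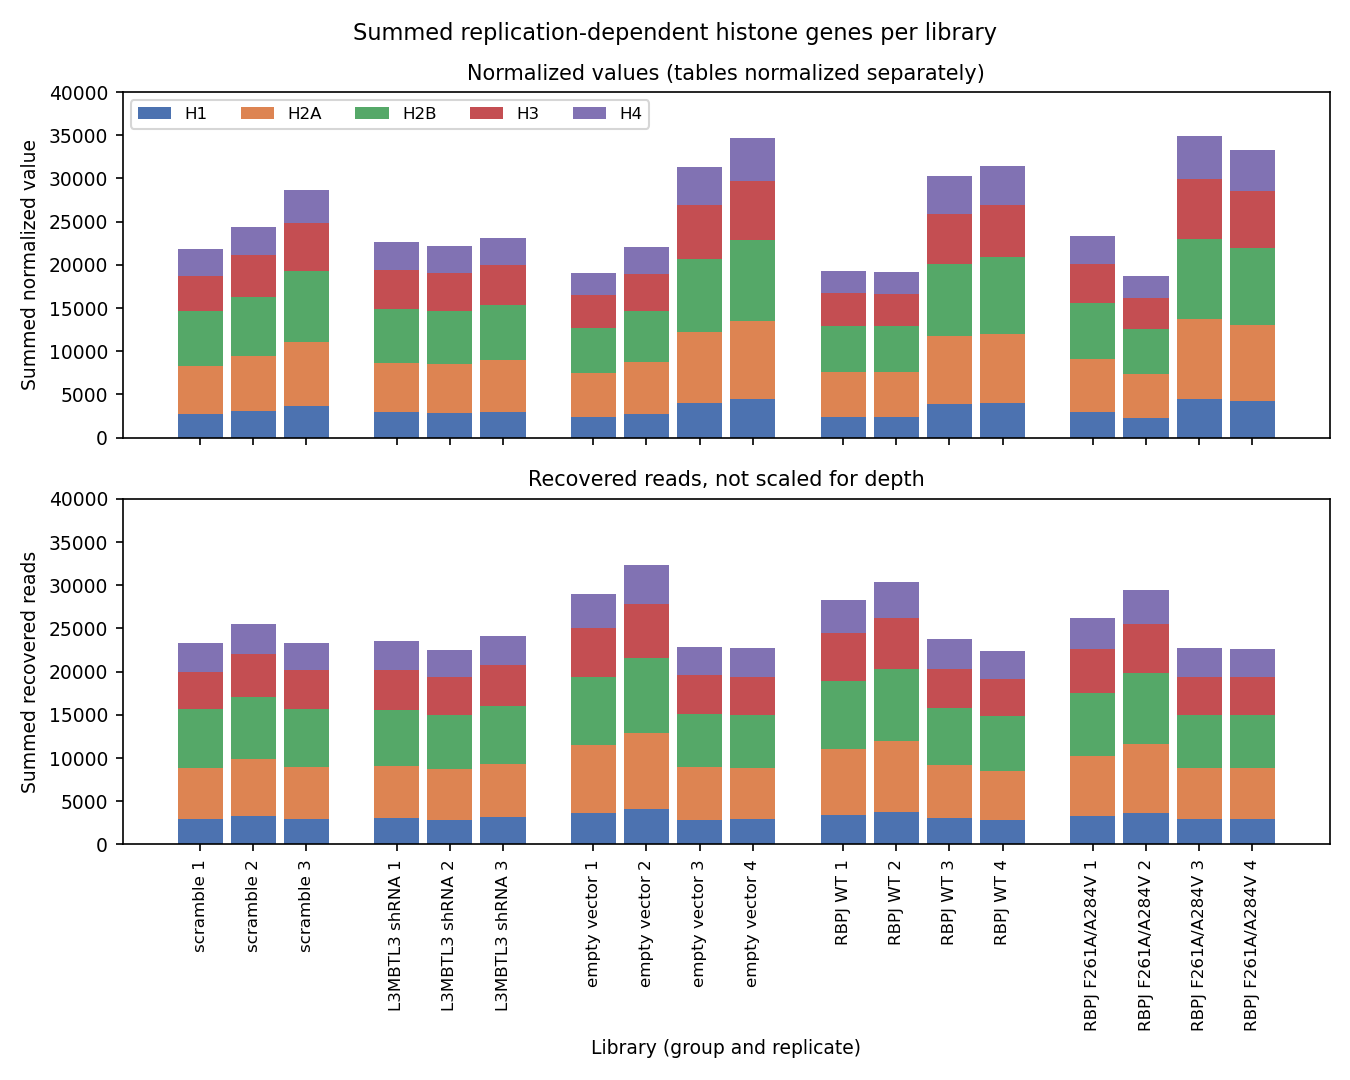
Summed normalized values (upper) and summed recovered reads (lower) of the 68 histone genes in each of the 18 libraries, stacked by class; both axes start at 0 and the 2 tables were normalized separately. Normalized sums of the rescue rise from between 18674 and 23286 in replicates 1 and 2 to between 30277 and 34961 in replicates 3 and 4, while recovered reads go from between 26166 and 32293 to between 22375 and 23769.

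Histone genes are short and were densely covered with reads. In replicates 1 and 2 they had a median of 650.0 recovered reads per kb of the longest GENCODE transcript, against 165 for the other tested genes, and 29 of the 100 genes with most reads per kb were histone genes. Over the other genes, the difference between the sides went up with reads per kb: the median was -0.45 under 30 reads per kb (1442 genes), -0.29 from 30 to 100 (2169), -0.02 from 100 to 300 (5308), 0.32 from 300 to 600 (2092), 0.69 from 600 to 1000 (123) and 0.50 from 1000 (24). Histone genes had 0.52 from 30 to 100 reads per kb (2 genes), 0.70 from 100 to 300 (11), 0.72 from 300 to 600 (17), 0.69 from 600 to 1000 (29) and 0.75 from 1000 (8). From 600 to 1000 reads per kb, histone genes and other genes thus had the same median, and in every other bin that held histone genes these stood higher. The longest transcript can far exceed the coding part, with 7425 against 663 bases for Hist1h1d and 2506 against 378 for Hist1h2be. Such genes fall in lower bins than they would by coding length. Removal of duplicate reads was not stated, and the part of reads per length in the difference was not tested.

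**Figure D5:**
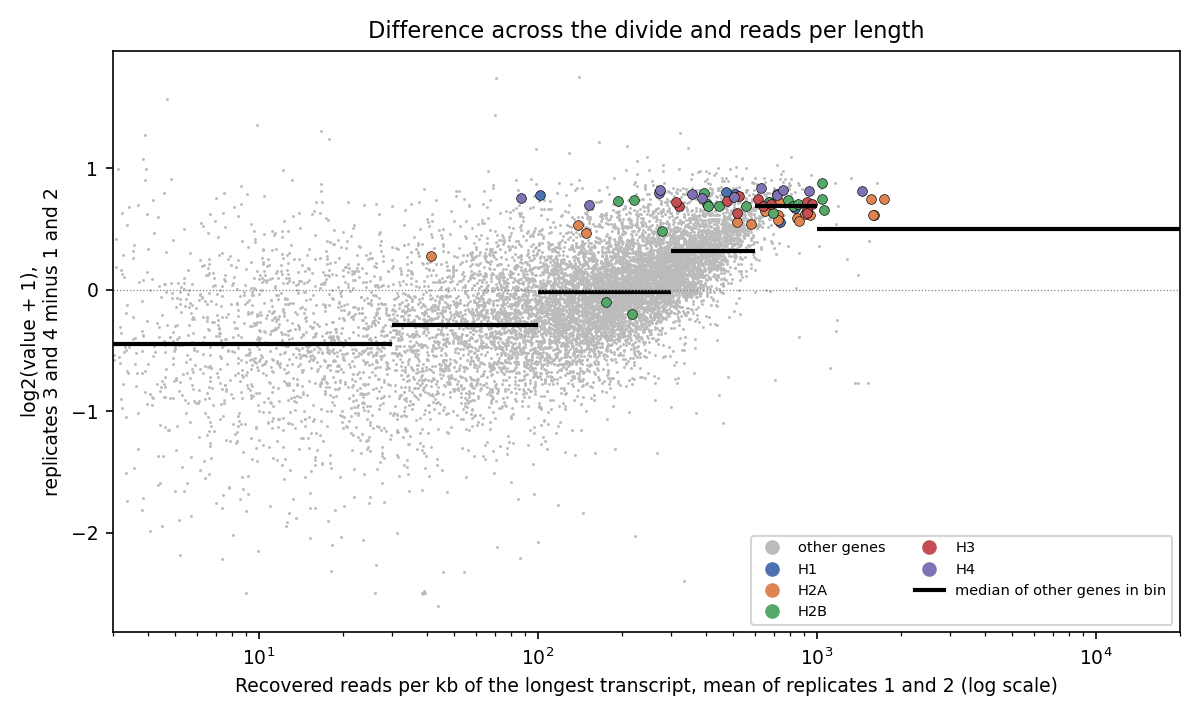
Difference between the sides of the rescue libraries, as log2(value + 1), against recovered reads per kb of the longest transcript (log scale) for the other tested genes (grey) and the histone genes by class (coloured); black bars are medians of the other genes in 6 bins, the last of them open. The bars rise from -0.45 to 0.69 and then stand at 0.50, and the histone genes form a band near 0.70 across bins, with Hist1h2aa, Hist3h2bb-ps and Hist3h2ba under it.

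Related gene lists were set beside the histone genes across the sides, again with no test and beside 26.2% of all genes higher and 21.3% lower. Of 20 genes of histone mRNA processing, 6 were higher and 4 lower without overlap (median 0.07, range -0.77 to 0.26), and of 13 histone chaperones 3 were higher and 3 lower (median 0.03, -0.66 to 0.48). S phase genes, whose products act when histone genes are expressed, were higher in 1 of 21 cases and lower in 8 (median -0.13, -0.72 to 0.38). Transcripts of replication-independent histone genes mostly carry poly(A) and are made outside S phase too. Of 9 such genes tested, 8 were higher and 0 lower (median 0.44, 0.24 to 0.51). Of 84 tested RNAs of other kinds without poly(A), 54 were higher and 1 lower (median 0.67, -1.35 to 1.74). T cell markers were higher in 7 of 9 tested cases and lower in 1 (median 0.55, -0.86 to 0.75). In the 3 rescue comparisons between groups, limma called 0 genes of the lists of histone mRNA processing, chaperones, S phase genes, replication-independent histones and other RNAs without poly(A). This held with group as the only term and with the replicate block. With the side as a term, 1 gene of histone mRNA processing, Ctif, was lower with F261A/A284V than with the empty vector, where 35 of all genes were.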

How the data were processed

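RNA was measured by stranded sequencing of ribosome-depleted total RNA in 18 libraries, per the labels' protocols. The submitters' processing notes name mm9 as the build and list DESeq2 1.24.0 and TopHat2 2.1.1. How reads were counted, with which annotation, and how strand, duplicates and multiply mapped reads were treated was not stated. The authors deposited 1 table per experiment, each as a signal: gene counts divided by 1 size factor per library, normalized separately. In every library 100% of the values were whole multiples of the value of 1 read (tolerance 0.1 read), which gave the recovered reads.

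Genes at 10 or more in at least 3 (knockdown) or 4 (rescue) libraries were tested with limma 3.58.1 (limma-trend, 2-sided, R 4.3.3) on log2(value + 1), with group as the only term, and p-values were adjusted by Benjamini-Hochberg over all genes tested. Fold changes are on that scale, which understates changes of low genes. The rescue comparisons came from 1 fit of 12 libraries. edgeR 4.0.16 and DESeq2 1.42.0 on recovered reads were alternatives. Over all genes, edgeR called 320 higher and 152 lower in the knockdown, 4 and 24 for RBPJ WT against the empty vector, 2 and 0 for F261A/A284V against the empty vector, and 20 and 9 for F261A/A284V against RBPJ WT. Other alternatives were other pseudocounts, no filter, quantile scaling, the side as a term, each side alone, near-identical libraries merged, and leaving out each library. The fit with group as the only term was run on simulated counts for the knockdown and for RBPJ WT against the empty vector. It recovered 99% to 100% of log2 changes of 1 or 2 in size, with 17 false calls among 11582 genes and 6 among 11672. The simulated libraries were independent, without sides or near-identical pairs, so this run says nothing about those features of the rescue libraries. Sums of classes are sums of normalized values, without a test.

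Replicate numbers are shared by the groups. Deviations of same-numbered libraries from their group means correlated across genes at 0.24 to 0.54 in the knockdown and 0.55 to 0.81 in the rescue, so that a fit with the replicate block is given where it changes a call. Knockdown replicates 1 and 2 also correlated across numbers (0.10 and 0.33), and rescue libraries of other numbers on the same side as highly as those of 1 number (0.56 to 0.83; -0.76 to -0.49 between sides). The rescue values thus follow the side, and pairing by number is uncertain in both tables.

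Genes were named as follows: the 3 members of each class with the highest mean, members called in a comparison, the largest rise and fall of each comparison, the 3 largest rises and falls between the sides, and called genes of the lists. The members and lists were chosen with earlier results of these data known. Symbols were matched to GENCODE M21 (GRCm38) for lengths, overlaps and stem-loops, and 67 of 68 to RefSeq (GRCm38.p6); no coordinates of mm9 were used. Levels of genes were compared per kb of coding length, and the bins of read density used the longest transcript; the 3 members per class were picked by mean normalized value, which is not per length.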

Additional observations from a re-analysis of the deposited data

How the results depend on the processing

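Counts of called histone genes stayed at 0 in all 4 comparisons under other pseudocounts, no filter, quantile scaling, edgeR, DESeq2 and leaving out each library, with these exceptions. With the replicate block (the paired fit), 3 histone genes fell in the knockdown (Hist2h2be, log2 -0.24; Hist1h2bq and Hist1h2br, -0.20 each), and the block changed no other call of a histone gene. Within replicates 3 and 4, 3 were higher with F261A/A284V than with RBPJ WT. The difference between the sides kept its direction under TMM and quantile scaling, and 64 to 65 histone genes stayed apart in every alternative. The log2 ratio of the sums for RBPJ WT was 0.65 after quantile scaling and 0.65 to 0.71 with 1 library left out; for F261A/A284V it was 0.55 to 0.87, the highest without replicate 1. Unscaled recovered reads, an alternative chosen after seeing the data, gave -0.43 (empty vector), -0.34 (RBPJ WT) and -0.29 (F261A/A284V); by construction they keep the depth of each library.

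Of genes that were not called, some changed sign; the cause was not tested. Hist3h2bb-ps against the empty vector was -0.05 within replicates 1 and 2, Hist1h2aa with F261A/A284V against RBPJ WT was 0.10 within replicates 3 and 4, and Hist2h3c1 and Hist2h3c2 were each -0.05 with near-identical libraries merged and no term for the side, another alternative chosen after seeing the data. With 1 library left out, Hist1h4h in the knockdown ran from -0.07 to 0.05, Hist2h2be with RBPJ WT from -0.05 to 0.21, Hist1h2aa with F261A/A284V from -0.21 to 0.06 against the empty vector and from -0.10 to 0.04 against RBPJ WT. Depth limits Hist1h1t and Hist1h2aa, which stand near 10 normalized counts or below.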
